A study of Homo sapiens with 18 samples.

Results

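The knockdown of p53 was examined in PEO1 cells after 2 h with estradiol, by setting the 3 sip53 samples against the 3 siControl samples of that time, which is 6 of the 18 samples in the series. The 6 samples were picked out by their labels, with earlier results of these data known, and every gene of the count table was examined. PEO1 is a cell line from a human high-grade serous ovarian cancer, and the series title describes its p53 as mutant. All cells had been kept for 48 h in medium without phenol red and with charcoal-stripped serum, which removes steroid hormones, and the cells compared here then received 10 nM estradiol (E2). The control cells carried the siControl siRNA and received the same E2 for the same time, so both groups shared the hormone and differed in the siRNA. The labels name 1 p53 siRNA reagent, so an effect of p53 and an effect of that reagent cannot be told apart. The remaining 12 samples, siControl and sip53 at 0 h and at 8 h, served to set the 2 h values beside those of other times.

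The protein p53 is a transcription factor that binds DNA as a tetramer and switches on genes for cell-cycle arrest, DNA repair and cell death, among them the p21 inhibitor CDKN1A. Missense mutations in its DNA-binding domain are the usual lesion of high-grade serous ovarian cancer, and mutant forms can lose part or all of this target control. E2 acts through the estrogen receptor ESR1, which binds estrogen response elements and recruits coactivators to genes such as GREB1, PGR and AREG. By its title the series asks if mutant p53 restrains ESR1, and the comparison at 2 h asks what the knockdown did early in the hormone response.

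Total counts per sample at 2 h were 8337555 to 8987475 in siControl and 9557952 to 11183488 in sip53, so every sip53 library was deeper than every siControl library, and depth and siRNA cannot be told apart. On the first principal component of the 6 samples the siControl samples lay between -37.3 and -22.8 and the sip53 samples between 26.2 and 34.8. On the second component siControl replicate 1 stood apart at 44.7, with the other 5 samples between -30.1 and 6.62. Nothing in the labels tells whether replicates were cultured or transfected separately, so p-values rest on the spread among these samples, part of which may be technical. Of 26 markers of epithelium and ovarian carcinoma 25 were matched in the table, and SOX17 and FOLR1 were at 0 in all 6 samples. Their summed level was 7227 to 7651 CPM (counts scaled to a common library size) in siControl and 8752 to 9661 in sip53. The 9 fibroblast markers summed to 131 to 143 CPM in siControl and 122 to 136 in sip53, most of it THY1. The collagens COL1A2 and COL3A1 were at 0, while COL1A1 was at 5.56 to 7.33 CPM in siControl and 8.79 to 11.8 in sip53. The 9 leukocyte markers summed to 15.4 to 21.1 and 14.6 to 17.2 CPM, nearly all of it CD14 and CD68, with PTPRC at 0. The 5 matched endothelial markers summed to at most 1.07 CPM.

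Knockdown of p53 was accompanied at 2 h by lower levels of some, but not most, p53 target genes, led by RPS27L and CDKN1A. Lower as well were AREG, SLC7A11, ACLY, IGFBP3 and 5 of 18 endoplasmic reticulum chaperones, while the other 13 were not called. By smaller amounts, 14 of 25 genes of cholesterol synthesis and uptake, 29 of 54 ribosomal proteins and 17 of 45 respiratory chain subunits were higher, counts that were 7, 11 and 3 without siControl replicate 2. Also higher were the keratins KRT7 and KRT19, the AP-2 factor TFAP2C and the heat shock protein HSPB1. A gene was called changed when its adjusted p (edgeR quasi-likelihood test, Benjamini-Hochberg) was under 0.05. Of 15318 genes tested 1871 were called, or 12.2%, of which 677 were higher in sip53 (4.42%) and 1194 lower (7.79%). At an unadjusted p under 0.05 there were 4101 genes. The median log2 fold change was 0.44 among the higher calls, -0.70 among the lower calls and 0.002 over all genes tested. A change of at least 1 on the log2 scale was found in 21 of the higher and 296 of the lower calls. The siControl and sip53 samples did not overlap in 33.2% of all tested genes (15.1% higher in sip53 and 18.1% lower). Among the 1871 calls 1848 were without overlap, so a lack of overlap adds little to a call. Counts of called members in the lists below are to be read against the 4.42% of all genes higher and 7.79% lower.

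The number of calls depended on the libraries used, from 821 without sip53 replicate 3 and 862 without siControl replicate 2 to 1923 without siControl replicate 1. It was 1076 without sip53 replicate 2, 1190 without siControl replicate 3 and 1266 without sip53 replicate 1. Where a named gene's call was lost when a library was left out, the number of these 6 fits that kept it is given beside its value.

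**Figure D1:**
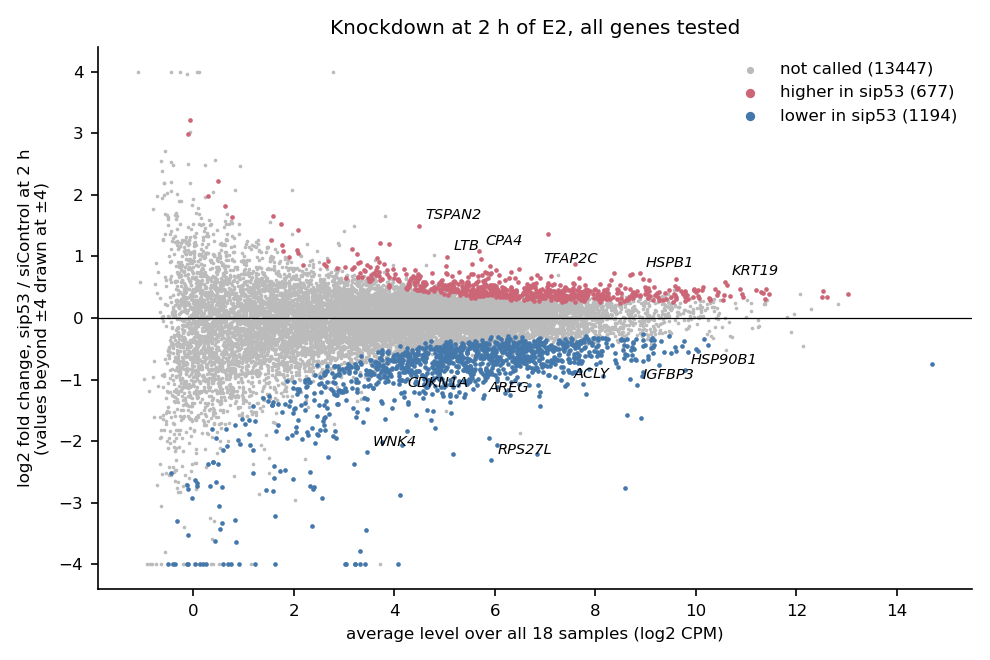
Log2 fold change of sip53 against siControl at 2 h of E2 (vertical axis) against the average level in log2 CPM over the 18 samples (horizontal axis), 1 point per gene tested, with values beyond ±4 drawn at ±4, coloured where the adjusted p was under 0.05. The 1194 lower calls reach further from 0 than the 677 higher calls.

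Among the p53-activated targets 10 of 37 tested members were lower and 1 was higher, against 7.79% and 4.42% of all genes. The other 26 were not called, and the median log2 fold change was -0.16 against 0.002 over all genes. Without 1 library 6 (without sip53 replicate 3) to 8 were lower. RPS27L, a ribosomal protein paralog that p53 induces (ENSG00000185088, chromosome 15, 63125872 to 63158021, minus strand, GRCh38), stood at 105, 91.2 and 80.7 CPM in siControl and at 18, 21.1 and 17.2 CPM in sip53. All 3 sip53 samples were far below all 3 control samples, and the log2 fold change was -2.30 ± 0.25 (SE, adjusted p = 8.86e-06). Its close relative RPS27, a constitutive ribosomal protein, was higher by 0.40 ± 0.12 (adjusted p = 0.028, call kept in 2 of 6 fits). CDKN1A, which encodes p21 and halts the cell cycle (ENSG00000124762, chromosome 6, 36676460 to 36687339, plus strand), was at 26.7, 24.1 and 22.2 CPM in siControl and 11.7, 9.58 and 10.0 CPM in sip53. The groups did not overlap, and CDKN1A fell by 1.22 ± 0.17 on the log2 scale (adjusted p = 0.000142).

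The other lower targets include genes of RNA processing, repair and stress signalling. ZMAT3, an RNA-binding regulator of splicing, had 20.6, 21.4 and 19.3 CPM in siControl against 11.8, 11.7 and 9.03 in sip53 and fell by 0.91 ± 0.16 (adjusted p = 0.00106). The helicase subunit ASCC3 fell by 0.74 ± 0.13 (adjusted p = 0.00107), and XPC, which recognises damage for nucleotide excision repair, by 0.54 ± 0.11 (0.00297). Each of these 3 calls was also made without any 1 library. The stress cytokine GDF15 fell by 1.52 ± 0.39 from a low level of 3.29, 4.12 and 6.48 CPM to 2.13, 1.69 and 0.993 CPM (adjusted p = 0.0137, call kept in 4 of 6 fits). The growth-arrest gene GADD45A was lower by 0.57 on the log2 scale in a call kept in 2 of 6 fits, the death receptor TNFRSF10A by 0.36 in 1 of 6, the lesion-bypass polymerase POLK by 0.47 in 1 of 6 and the kinase CSNK1G1 by 0.64 in 4 of 6. DRAM1, a p53-induced regulator of autophagy, went the other way. It stood at 138, 120 and 132 CPM in siControl and 182, 173 and 172 CPM in sip53, without overlap, and rose by 0.43 ± 0.10 (adjusted p = 0.00532).

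Several of the best known targets did not pass the test. MDM2, the ubiquitin ligase that p53 induces and that degrades it, was at 52.2, 42.9 and 38.8 CPM in siControl and 49.7, 44.1 and 44.4 in sip53 (log2 0.05 ± 0.14, adjusted p = 0.869), and the groups overlapped. The pro-apoptotic genes BBC3 and BAX had log2 values of -0.003 and -0.25 (adjusted p = 0.99 and 0.24). Of the 16 members of the BCL2 family, which set the threshold for mitochondrial cell death, only BID was called, higher by 0.35 ± 0.10 (adjusted p = 0.0202, call kept in 3 of 6 fits), and the family's median was -0.03.

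The promoters of the p53 targets were read for the p53 half-site, the 10-base element that a p53 dimer contacts, on either strand of the 250 bases before each gene's start in the RefSeq promoter table (build GRCh38.p14). A match was found in 5.53% of all 27305 promoters, in 4 of 31 p53 targets with an entry (12.9%), and in 4.74% of the genes lower at 2 h. RPS27L held the only match among the 7 lower targets with an entry, 59 bases before the start, and the 30 bases around it are shown because RPS27L had the largest fall of the list. The capitals mark the half-site (chr15:63157517-63157546, minus strand). A match describes letters in this window and is not a measured binding site.
RPS27L: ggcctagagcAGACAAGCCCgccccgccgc

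**Figure D2:**
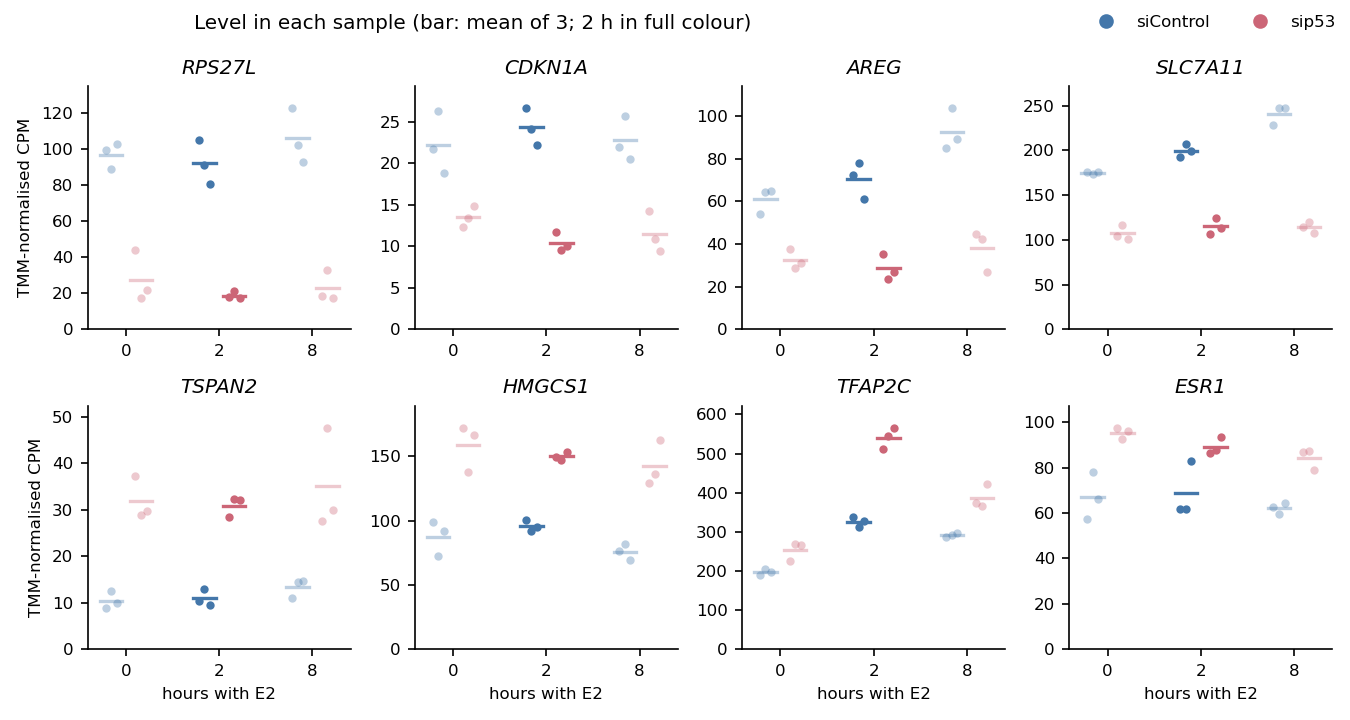
Level of 8 genes in each of the 18 samples (TMM-normalised CPM on a linear axis from 0) by hours with E2, with points for samples and bars for means of 3. At 2 h, drawn in full colour, RPS27L, CDKN1A, AREG and SLC7A11 are lower and TSPAN2, HMGCS1, TFAP2C and ESR1 higher in sip53.

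Outside the p53 list, the largest falls among protein-coding genes of sufficient level were in genes of varied function. WNK4, a kinase that regulates ion transporters, went from 11.7, 19.4 and 18.8 CPM to 3.91, 3.90 and 3.16 CPM, a fall of 2.18 ± 0.43 (adjusted p = 0.00245). ALG11, a mannosyltransferase of N-glycan assembly, fell by 1.79 ± 0.27 (adjusted p = 0.000264), and ALDH1L2, a mitochondrial enzyme of folate metabolism, by 1.49 ± 0.20 (0.000111). The presynaptic scaffold PCLO fell by 1.54 ± 0.24, the lysosomal cation channel MCOLN2 by 1.53 ± 0.25 and the hemidesmosome collagen COL17A1 by 1.46 ± 0.25. The ankyrin-repeat gene ANKRD36 (-1.42), the helicase DDX59 (-1.38) and the centriole gene CEP83 (-1.37) completed the group, all without overlap between the groups and called in every fit that left out 1 library. TVP23B, a Golgi membrane protein, was lower by 1.58 on the log2 scale in a call kept in 4 of 6 fits.

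Counting or naming is in doubt for at least 4 genes of this ranking, and the other ranked genes were not checked for close copies. H1-2, a linker histone (54.3, 47.4 and 28.7 CPM against 10.5, 8.00 and 9.57, log2 -2.21 ± 0.47), and H4C3, a core histone H4 (672, 468 and 346 CPM against 152, 184 and 161, log2 -1.58 ± 0.38), belong to families of near-identical genes whose reads can be split between copies. The siControl samples of both were more spread than the sip53 samples. The protein-coding genes ENSG00000257411 (log2 -2.21 ± 0.47) and ENSG00000271698 (log2 1.20 ± 0.35, call kept in 3 of 6 fits) have no gene symbol in the annotation. On chromosome 12 ENSG00000257411 (56101331 to 56109289, plus strand) overlaps ERBB3 (56076799 to 56103505, plus strand). Reads may therefore be split between them, which bears on the ERBB3 values given below as well.

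Fewer genes rose by a large amount. TSPAN2, a tetraspanin of the cell membrane (ENSG00000134198, chromosome 1), rose from 10.3, 12.9 and 9.49 CPM to 28.4, 32.2 and 32.1 CPM, or 1.5 ± 0.20 on the log2 scale (adjusted p = 8.99e-05). CPA4, a secreted carboxypeptidase, rose from 30.3, 40.2 and 39.4 CPM to 75.9, 73.9 and 83.1 CPM (1.09 ± 0.14, adjusted p = 6.77e-05). LTB, a membrane ligand of the tumor necrosis factor family, rose from 21.3, 22.4 and 26.4 CPM to 45.5, 47.5 and 47.1 CPM (1.00 ± 0.15, adjusted p = 0.000225). In each of these the sip53 samples lay above all controls by more than the spread within either group. MED18, a Mediator subunit (1.11 ± 0.23), the ubiquitin ligase RNF144B (0.98 ± 0.18), ADAMTS15, a matrix protease (0.89 ± 0.21), TNS3, a tensin of focal adhesions (0.88 ± 0.14), the lipid kinase PIK3C2B (0.87 ± 0.21) and TRIM16 (0.84 ± 0.10), a tripartite-motif protein, also rose in every fit that left out 1 library. Calls for CFAP119 (1.04, 3 of 6), DISP2 (0.91, 2 of 6), the histone methyltransferase SUV39H1 (0.91, 4 of 6), the endocytic protein NECAP1 (0.84, 3 of 6) and the ribosomal protein RPL28 (0.87, 1 of 6) were lost in some of these fits. For RPL28 the control samples were at 210, 180 and 95.7 CPM, so the last of them carries much of the difference.

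The estrogen receptor itself was higher after knockdown, by a small amount. ESR1 (ENSG00000091831, chromosome 6, 151656691 to 152129619, plus strand) stood at 62.0, 61.8 and 82.9 CPM in siControl and 86.5, 87.6 and 93.7 CPM in sip53. The groups did not overlap, but siControl replicate 3 lay close to the sip53 samples and well above the other controls. The log2 fold change was 0.37 ± 0.12 (adjusted p = 0.0401). The call was kept in 1 of 6 fits, the one without siControl replicate 3 (log2 0.54, adjusted p = 0.00932), and over the other 5 the adjusted p ran up to 0.181, without siControl replicate 2. It was kept in all 8 settings that left out none of the 6 samples. In the samples of the other times ESR1 was higher in sip53 by 0.51 at 0 h (adjusted p = 0.0114) and by 0.44 at 8 h (0.0237).

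Of 18 receptors and cofactors tested 3 were higher and 1 lower, against 4.42% and 7.79% of all genes, with a median of -0.01. TFAP2C, the AP-2 gamma factor that binds beside ESR1 in breast cancer cells, had 338, 312 and 327 CPM in siControl and 511, 544 and 565 CPM in sip53. It rose by 0.73 ± 0.09 (adjusted p = 4.41e-05) with a wide gap between the groups, and was called without any 1 library. The coregulator CITED2 was higher by 0.49 ± 0.16 (adjusted p = 0.0466) in a call kept in 0 of 6 fits. NRIP1, a corepressor that E2 also induces, was lower, with 39.7, 40.4 and 34.5 CPM against 29, 26.0 and 24.1 CPM (log2 -0.53 ± 0.16, adjusted p = 0.0348, call kept in 2 of 6). The coactivators NCOA3 (-0.01), MED1 (-0.003) and EP300 (-0.03) had values close to 0 and adjusted p of 0.86 or more. FOXA1, a pioneer factor of estrogen response in breast, stood at 0.926 to 3.21 CPM in siControl and 0.632 to 2.04 in sip53, and was not called at this low level (-0.74 ± 0.57, adjusted p = 0.445).

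Of 32 known estrogen-induced genes tested 5 were lower and 1 higher, against 7.79% and 4.42% of all genes, and the median was 0.09. Lower members numbered 3 without siControl replicate 2 and without sip53 replicate 2 or 3. With the trend with length and GC content removed, 3 were lower and 2 higher, and NRIP1 (adjusted p = 0.276) and MYBL1 (0.119) were no longer called. AREG, an EGF receptor ligand and a standard estrogen target (ENSG00000109321, chromosome 4, 74445134 to 74455009, plus strand), was at 72.4, 78.2 and 61.2 CPM in siControl and 35.2, 23.7 and 26.6 CPM in sip53. No sip53 sample reached the lowest control, and AREG fell by 1.31 ± 0.17 (adjusted p = 8.99e-05). SLC26A2, a sulfate transporter, went from 231, 216 and 229 CPM to 130, 127 and 122 CPM, a fall of 0.84 ± 0.12 (adjusted p = 0.000129). XBP1, a factor that expands the secretory machinery, went from 90.6, 97.3 and 95.5 CPM to 62.0, 64.6 and 69.0 CPM (-0.54 ± 0.09, adjusted p = 0.000935). Both pairs of groups were well separated. The MYB relative MYBL1 was lower by 0.60 on the log2 scale in a call kept in 1 of 6 fits. FHL2, a LIM-domain coregulator, was the higher member, with 220, 188 and 195 CPM against 278, 290 and 308 CPM (0.54 ± 0.10, adjusted p = 0.00118).

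The classical targets GREB1, CCND1 and MYC were not called. GREB1, a chromatin-bound partner of ESR1, was at a low level of 1.48, 2.52 and 1.97 CPM in siControl and 2.13, 2.74 and 3.07 CPM in sip53 (log2 0.41 ± 0.46, adjusted p = 0.62). The cyclin gene CCND1 had overlapping groups (0.08 ± 0.10, adjusted p = 0.693). MYC, a growth-promoting transcription factor, stood at 26.0, 26.2 and 26.3 CPM against 30.9, 37.5 and 31.1 CPM, without overlap but with a log2 value of 0.34 ± 0.22 and an adjusted p of 0.334. PGR, the progesterone receptor, did not pass the filter on low counts. Genes that E2 represses had 3 of 10 members higher and 0 lower, with a median of 0.25, and 1 higher without siControl replicate 1 or 2 or sip53 replicate 3. KLF6, a zinc-finger factor, rose by 0.53 ± 0.11 (98.1, 112 and 107 CPM against 143, 151 and 163, adjusted p = 0.00261), while the ephrin EFNA1 (0.38 ± 0.11) and the receptor ERBB3 (0.35 ± 0.10) were higher in calls kept in 3 and 1 of 6 fits.

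Cholesterol genes were higher at steps from the first to the last of their pathway. This pathway makes sterols from acetyl-CoA and is driven by SREBF2, a membrane-bound transcription factor that is released when sterols are scarce. Of 25 members tested 14 were higher and 0 lower, against 4.42% and 7.79% of all genes, and 24 of the 25 had a positive log2 fold change, with a median of 0.38. Without siControl replicate 2 the higher members numbered 7, without sip53 replicate 2 or 3 they numbered 8, without sip53 replicate 1 they numbered 9, and 10 and 11 without siControl replicate 1 and 3. None was lower in those fits, and the median stayed between 0.36 and 0.40. Upstream, SREBF2 rose from 85.0, 81.2 and 85.9 CPM to 104, 112 and 121 CPM (0.42 ± 0.09, adjusted p = 0.00555). At the first steps, HMGCS1, which makes HMG-CoA (ENSG00000112972, chromosome 5), rose from 100, 92.0 and 94.9 CPM to 149, 147 and 154 CPM (0.65 ± 0.12, adjusted p = 0.00139), and ACAT2, which makes its substrate, from 62.7, 60.2 and 54.9 CPM to 99.6, 92.2 and 81.3 CPM (0.62 ± 0.12, adjusted p = 0.00193). The groups of all 3 genes did not overlap.

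Further along the pathway, the isomerase IDI1 rose by 0.71 ± 0.19 (adjusted p = 0.0164, call kept in 4 of 6 fits), the farnesyl diphosphate synthase FDPS by 0.45 ± 0.10 (0.00507) and the squalene synthase FDFT1 by 0.44 ± 0.11 (0.00903, kept in 5 of 6). The last enzymes also rose, DHCR7, which makes cholesterol itself, from 94.0, 94.0 and 106 CPM to 130, 144 and 152 CPM (0.53 ± 0.10, adjusted p = 0.00177) and the sterol isomerase EBP from 141, 133 and 143 CPM to 188, 187 and 182 CPM (0.42 ± 0.08, 0.00201). MVK, SQLE, TM7SF2, NSDHL and SC5D were also higher, with calls kept in at most 2 of 6 fits. INSIG1, which retains the SREBF2 complex in the endoplasmic reticulum, was not called and its groups overlapped (0.06 ± 0.17).

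Promoters of these genes are known to hold CCAAT boxes, which the factor NF-Y binds beside sterol elements, and the 250 bases before each start were read for that box. ATTGG, the CCAAT box read on either strand, was in 33% of all promoters, 35.2% of those of tested genes, 38.1% of those higher and 36.8% of those lower at 2 h. It was in 16 of 20 cholesterol genes with an entry (80%) and in 9 of the 10 higher members with one. The 30 bases around the match nearest the start are given for the 9 higher members, to show the letters that these promoters share. They run 5′ to 3′ on the gene's strand, from the RefSeq table of build GRCh38.p14, with the box in capitals. A match describes letters and is no measured site.
SREBF2: cttcgctcgcccATTGGctgagatgagcct
HMGCS1: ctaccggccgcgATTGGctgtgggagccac
MVK: tcgcgcgctctgATTGGctggcctgaagta
FDPS: tcccgcgggcacATTGGgagttgtagtcta
TM7SF2: ccccgagcgccgATTGGctggtgtgctggg
NSDHL: cgccgagctgggCCAATcctcttggtggag
EBP: cttcgcttcaccATTGGctcgctccgtaag
SC5D: cgccggtcgctgATTGGctggccgctccag
DHCR7: ggtccgcctccgATTGGcaggcaatcgctg

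These windows lie at chr22:41832987-41833016 for SREBF2, chr5:43313495-43313524 for HMGCS1, chr12:109573736-109573765 for MVK, chr1:155308803-155308832 for FDPS and chr11:65111786-65111815 for TM7SF2. Those of NSDHL, EBP, SC5D and DHCR7 are at chrX:152830967-152830996, chrX:48521766-48521795, chr11:121292703-121292732 and chr11:71448424-71448453. HMGCS1 and DHCR7 are on the minus strand and the others on the plus strand, and the first letter of the box lay 106, 100, 46, 51, 74, 84, 30, 56 and 48 bases before the start in the order of the lines.

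Fatty acid synthesis was divided at its entry. ACLY, which makes cytosolic acetyl-CoA from citrate (ENSG00000131473, chromosome 17), fell from 288, 228 and 234 CPM to 125, 113 and 118 CPM, by 1.07 ± 0.11 (adjusted p = 4.62e-06). The groups were far apart, and it was the only lower call among 10 members tested. The synthase FASN rose from 571, 522 and 540 CPM to 718, 714 and 750 CPM (0.42 ± 0.08, adjusted p = 0.00275) and the desaturase SCD from 248, 236 and 255 CPM to 346, 367 and 367 CPM (0.55 ± 0.10, 0.00126). The elongase ELOVL5 was higher by 0.39 ± 0.11 in a call kept in 2 of 6 fits, and the list's median was 0.18.

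Redox genes were called in both directions. SLC7A11, which imports cystine for glutathione (ENSG00000151012, chromosome 4), fell from 192, 207 and 200 CPM to 107, 125 and 114 CPM, by 0.80 ± 0.09 (adjusted p = 1.45e-05). TXNRD1, the cytosolic thioredoxin reductase, fell from 124, 114 and 97.5 CPM to 62.4, 57.6 and 47.7 CPM, by 1.00 ± 0.17 (adjusted p = 0.000874), and NFE2L2, the NRF2 factor that induces both, by 0.60 ± 0.15 (0.0101, call kept in 4 of 6 fits). The groups of each were separate. The ferritin heavy chain FTH1 rose from 8030, 6691 and 6431 CPM to 8828, 9537 and 9497 CPM (0.40 ± 0.09, adjusted p = 0.00578). In all 5 of 23 tested members were higher and 3 lower, with a median of 0.12. Higher members numbered 2 in the fits without siControl replicate 2 or 3 and without the third sip53 library, 3 without sip53 replicate 2 and 6 without siControl replicate 1. FTL, the ferritin light chain (0.45 ± 0.12, call kept in 3 of 6 fits), and the pentose phosphate enzymes PGD (0.35, 1 of 6) and TKT (0.33, 2 of 6) were among them. NQO1 and GCLM, which NRF2 also induces, had log2 values of 0.27 each and were not called (adjusted p = 0.0939 and 0.146).

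The ATF4 list, which covers the amino-acid stress response, had 2 of 23 members higher and 2 lower, against 4.42% and 7.79% of all genes. Its median was -0.003, and ALDH1L2 and SLC7A11 were the lower ones. SLC3A2, the partner chain of SLC7A11, was higher by 0.29 ± 0.09 (adjusted p = 0.0432) in a call kept in 1 of 6 fits and lost with the trend removed (0.12, adjusted p = 0.47). Cytosolic tRNA synthetases had 1 of 20 higher and 3 lower, against 4.42% and 7.79% of all genes. LARS1, the leucine enzyme, fell from 198, 239 and 210 CPM to 133, 134 and 126 CPM (-0.72 ± 0.10, adjusted p = 0.000129), and QARS1, the glutamine enzyme, rose from 67.0, 70.2 and 66.2 CPM to 88.5, 95.1 and 92.4 CPM (0.44 ± 0.09, 0.00329).

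Of the chaperones of the endoplasmic reticulum 5 of 18 were lower and 0 higher, with a median of -0.15. PDIA3, a disulfide isomerase for glycoproteins, fell from 357, 403 and 396 CPM to 202, 199 and 199 CPM (-0.94 ± 0.15, adjusted p = 0.00049). HSP90B1, the resident HSP90, fell from 1185, 1222 and 1250 CPM to 719, 678 and 631 CPM (-0.85 ± 0.15, adjusted p = 0.00123), and the cochaperone DNAJC3 by 0.78 ± 0.16 (0.00305). All 3 had well separated groups. HSPA5, the main chaperone of this compartment, was at 1712, 1604 and 1735 CPM against 1511, 1531 and 1527 CPM and was not called (-0.14 ± 0.08, adjusted p = 0.232). Among 19 cytosolic heat shock proteins 2 were higher and 0 lower. HSPB1, a small heat shock protein, rose from 351, 368 and 379 CPM to 553, 576 and 689 CPM (0.73 ± 0.10, adjusted p = 0.000129), and the factor HSF1 was higher by 0.30 ± 0.09 in a call kept in 1 of 6 fits and lost with the trend removed (0.17, adjusted p = 0.267). The count for this list is near the 4.42% of all genes that were higher.

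Growth factor genes with calls included ligands, receptors and binding proteins. Beside AREG, the EGF receptor ligand HBEGF fell from 108, 114 and 110 CPM to 77.1, 82.3 and 82.7 CPM (-0.46 ± 0.09, adjusted p = 0.00312), and the ligand BTC was lower by 0.69 in a call kept in 1 of 6 fits. Together 3 of 12 members of this family were lower and 1, the receptor ERBB3, higher. EGFR itself was not called and its groups overlapped (-0.05 ± 0.09). Of 11 genes of the insulin-like growth factor axis 2 were higher and 2 lower, and all 4 calls were made without any 1 library. IGFBP3, a secreted binding protein (ENSG00000146674, chromosome 7), fell from 631, 621 and 678 CPM to 296, 308 and 301 CPM (-1.09 ± 0.14, adjusted p = 5.68e-05), and IGF2R, which clears IGF2, from 138, 136 and 142 CPM to 70.2, 73.1 and 72.7 CPM (-0.95 ± 0.15, 0.000398). IGFBP5 rose from 273, 342 and 405 CPM to 506, 563 and 601 CPM (0.71 ± 0.15, adjusted p = 0.00329), and the adaptor IRS2 from 692, 704 and 713 CPM to 979, 1046 and 1007 CPM (0.52 ± 0.09, 0.000874). Both binding proteins had groups without overlap, in opposite directions.

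Called cell-cycle genes lay in both directions. Of 21 G1 regulators 4 were higher and 4 lower, and without sip53 replicate 3 the higher ones numbered 0, without siControl replicate 3 they numbered 1 and without sip53 replicate 1 they numbered 2. CDK6, a kinase that starts the cycle, fell from 264, 225 and 203 CPM to 110, 115 and 97.0 CPM (-1.11 ± 0.18, adjusted p = 0.000499), with CDKN1A as described and the pocket proteins RBL1 (-0.63 ± 0.12, 0.00193) and RB1 (-0.57 ± 0.17, 0.0346, call kept in 1 of 6 fits). The factor E2F1 rose by 0.52 ± 0.12 (adjusted p = 0.00665, kept in 5 of 6), and E2F2 (0.87), CCND3 (0.72) and CDKN1B (0.48) were higher in calls kept in 3, 4 and 2 of 6 fits. Replication genes held 3 calls among 40, with 1 higher and 2 lower, the polymerase subunit POLA1 at -0.76 ± 0.18 (adjusted p = 0.00728, kept in 5 of 6) and POLD3 at -0.64 ± 0.18 (kept in 3 of 6). The share of calls in this list, 3 of 40, is below the 12.2% of all genes.

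Of 36 genes of mitosis and the kinetochore 7 were lower and 1 higher, with a median of -0.07. Lower members numbered 2 without sip53 replicate 3, 3 without siControl replicate 2, 4 without sip53 replicate 2 and 5 without each of the others. CENPE, a kinetochore motor, fell from 213, 233 and 225 CPM to 131, 126 and 109 CPM (-0.88 ± 0.13, adjusted p = 0.000207). NUF2, which anchors microtubules, fell by 0.60 ± 0.15 (adjusted p = 0.01, kept in 5 of 6 fits), and AURKB, the kinase that corrects attachments, was higher by 0.33 ± 0.10 (0.0262, kept in 3 of 6). Of 30 genes of homologous recombination and the Fanconi pathway 9 were lower and 1 higher, with a median of -0.17. FANCB, a subunit of the Fanconi core complex, fell from 18.4, 21.5 and 22.5 CPM to 8.71, 9.06 and 7.04 CPM (-1.33 ± 0.26, adjusted p = 0.00248). BRCA2, a mediator of homologous recombination, fell from 29.8, 40.0 and 35.5 CPM to 19.1, 16.1 and 16.9 CPM (-1.01 ± 0.21, adjusted p = 0.00386), and the checkpoint kinase ATR by 0.80 ± 0.14 (0.000865). The groups of these 3 did not overlap. Without siControl replicate 2 only 4 members were lower, without sip53 replicate 1 or 3 there were 5, and without siControl replicate 3 or sip53 replicate 2 there were 6. The list's transcripts had a median GC content of 41.4%, against 48.1% over all protein-coding genes tested. Fold change moved with GC content and length over all genes, and with that trend removed 5 were lower, 1 was higher and the median was -0.006.

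Of 54 ribosomal proteins tested 29 were higher and 0 lower, and the other 25 were not called. The log2 fold changes ran from -0.22 to 0.87, 53 of them positive, with a median of 0.39. RPL11, of the large subunit, stood at 749, 626 and 567 CPM in siControl and 906, 900 and 893 CPM in sip53 (0.47 ± 0.10, adjusted p = 0.00478), and RPS4X, of the small subunit, at 279, 231 and 217 against 343, 342 and 364 CPM (0.53 ± 0.11, 0.00272). RPS12 was the most abundant of those named, at 5673, 4591 and 4341 CPM against 6470, 6613 and 6732 CPM (0.44 ± 0.10, adjusted p = 0.0056). In each of the 3 genes siControl replicate 1, the library that stood apart on the second component, was the control nearest to the sip53 samples. Higher members numbered 38 without siControl replicate 1, 11 without siControl replicate 2 or 3, and 18, 13 and 15 without sip53 replicates 1, 2 and 3, with 0 lower. With the trend with length and GC content removed 21 were higher and the median was 0.28. Ribosomal proteins have many processed pseudogenes, so their counts are uncertain where reads map to more than 1 place.

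Of 45 nuclear-encoded subunits of the respiratory chain 17 were higher and 0 lower, with a median of 0.27. NDUFS8, of complex I, rose from 117, 104 and 104 CPM to 160, 166 and 196 CPM (0.69 ± 0.12, adjusted p = 0.000916). The ATP synthase subunit ATP5PO rose from 176, 158 and 135 CPM to 213, 223 and 224 CPM (0.49 ± 0.10, adjusted p = 0.00246). Higher members numbered 20 without siControl replicate 1, 3 and 4 without siControl replicates 2 and 3, and 10, 3 and 5 without sip53 replicates 1, 2 and 3. After removal of the trend there were 12. Glycolysis and hypoxia genes had 10 of 28 members higher and 2 lower. Lactate dehydrogenase A, LDHA, rose from 1308, 1190 and 1142 CPM to 1633, 1637 and 1773 CPM (0.47 ± 0.08, adjusted p = 0.00126), and the pyruvate kinase PKM by 0.62 ± 0.12 (0.00243). VEGFA, a hypoxia-induced angiogenic factor, fell from 24.9, 23.1 and 29.5 CPM to 15.2, 15.1 and 12.3 CPM (-0.87 ± 0.17, adjusted p = 0.00205), and TXNIP, which restrains glucose uptake, was lower by 0.64 (kept in 3 of 6). Higher members numbered 2 and 3 without siControl replicates 2 and 3, 5 and 3 without sip53 replicates 2 and 3, and 5 with the trend removed.

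Epithelial genes were higher in 6 of 22 tested members and lower in 1, with a median of 0.15. Without 1 library 3 to 5 were higher and 0 to 1 lower, and the median lay between 0.035 and 0.25. The keratin KRT19 (ENSG00000171345, chromosome 17) rose from 1201, 1182 and 1203 CPM to 1597, 1749 and 2062 CPM (0.59 ± 0.09, adjusted p = 0.000316), and KRT7 from 1395, 1263 and 1209 CPM to 1695, 1851 and 2074 CPM (0.54 ± 0.10, 0.00159). KRT18 rose by 0.36 ± 0.09 (adjusted p = 0.00798), a call lost once the trend with length and GC content was removed (0.20, adjusted p = 0.104), when 3 members were higher and 0 lower. The grainyhead factor GRHL2 was lower by 0.43 in a call kept in 2 of 6 fits. Among 19 mesenchymal and matrix genes 4 were lower and 0 higher, against 7.79% and 4.42% of all genes, with a median of -0.21. Lower members numbered 1 without siControl replicate 2 and 2 without each of the sip53 replicates. The integrin ITGB1 was lower by 0.44 ± 0.10 (adjusted p = 0.00523) and the laminin LAMB1 by 0.48 ± 0.12 (0.0103, kept in 4 of 6), while TWIST1 (2.95, 2.98 and 2.43 CPM against 0.622, 0.316 and 1.26) and ZEB1 (at most 2.43 CPM), factors of epithelial to mesenchymal transition, were called from counts near the floor in 3 and 1 of 6 fits.

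Adhesion genes were divided, with 6 of 28 higher, 5 lower and a median of 0.01. The integrin subunits ITGA6 (105, 107 and 100 CPM against 66.2, 62.5 and 57.1, log2 -0.75 ± 0.16, adjusted p = 0.00433) and ITGA2 (-0.59 ± 0.11, 0.00163) fell with ITGB1 and the focal adhesion kinase PTK2 (-0.47 ± 0.10, 0.00498). ITGB8 rose from 51.8, 52.5 and 64.5 CPM to 86.0, 83.3 and 84.0 CPM (0.59 ± 0.14, adjusted p = 0.0073), and the caveolin CAV1 from 192, 170 and 181 CPM to 257, 246 and 248 CPM (0.47 ± 0.10, 0.00315).

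Counts in the signalling lists are to be read against the 12.2% of all genes that were called. Of 25 immediate-early genes, the first to respond to growth stimuli, 2 were higher and 0 lower, the phosphatase DUSP5 (0.43 ± 0.10, adjusted p = 0.00534) and KLF6, and the median was 0.02. Of 12 Kruppel-like factors KLF6 was higher and KLF3 lower (-0.91 ± 0.24, kept in 4 of 6 fits). Interferon-response genes had 3 of 26 lower and 0 higher with a median of -0.29, led by the helicases DDX60 (-0.90 ± 0.19, adjusted p = 0.00386) and RIGI (-0.71 ± 0.14, 0.00241), the latter a sensor of viral RNA. NFKB2 was the called member of 15 inflammatory genes (0.75 ± 0.18, adjusted p = 0.00801, kept in 4 of 6). Of 17 YAP targets and CCN genes the matricellular CCN3 (-0.95 ± 0.20, 0.00422) and the factor TEAD1 (-0.43, kept in 2 of 6) were lower. FAP, a protease listed as a fibroblast marker, fell from 13.7, 15 and 14.9 CPM to 7.2, 8.21 and 8.40 CPM (-0.87 ± 0.20, adjusted p = 0.00678). The other 2 tested fibroblast markers were not called. Whether fewer cells of a kind or less RNA per cell lay behind any change cannot be told apart in bulk RNA.

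**Figure D3:**
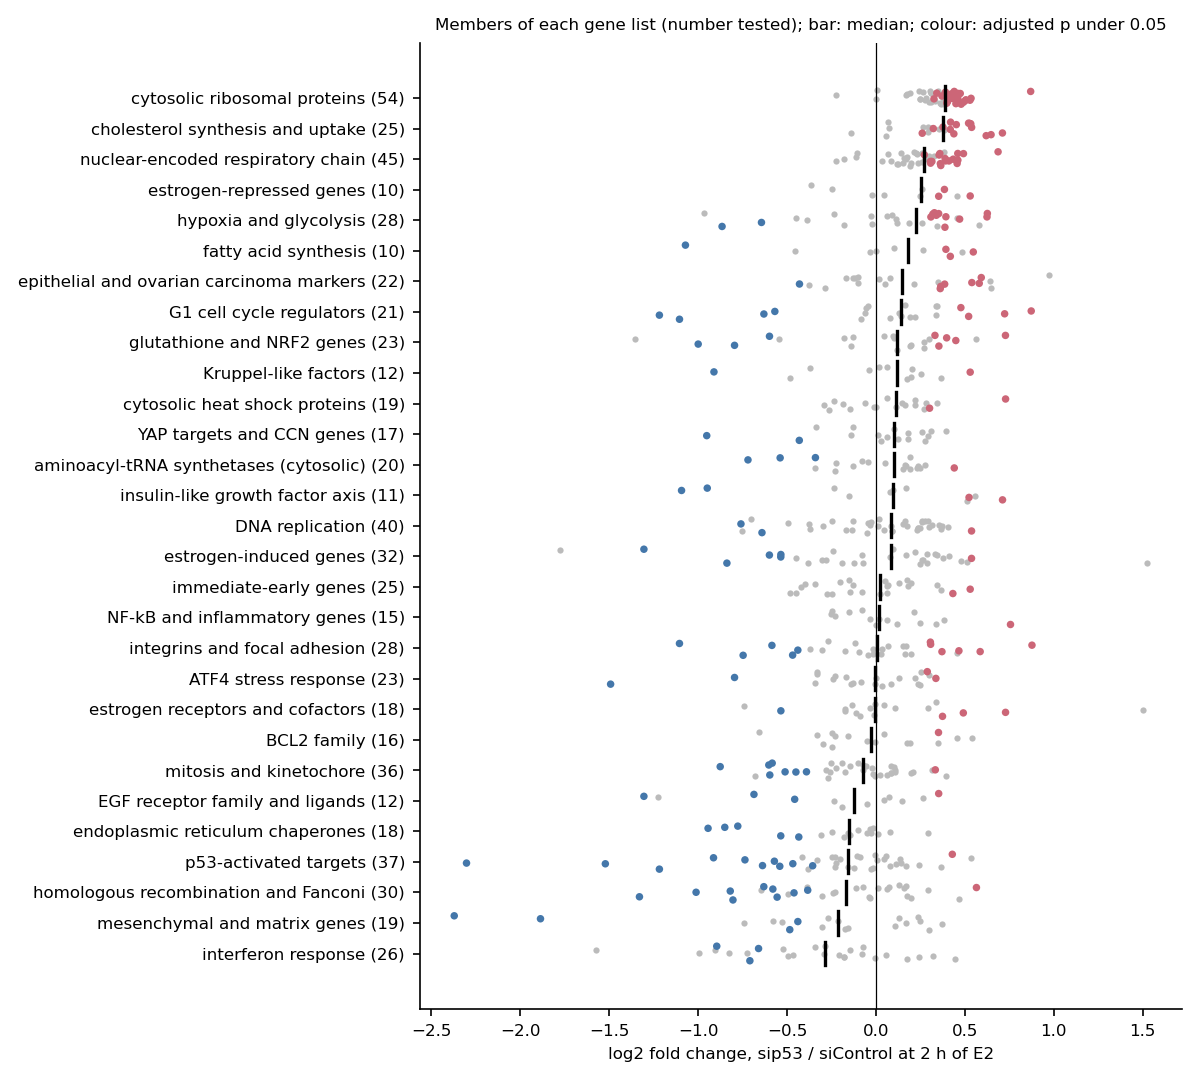
Log2 fold change at 2 h (horizontal axis) of every tested member of each gene list (1 point per gene, jittered), with the list's median as a black bar and colour for calls at an adjusted p under 0.05. Ribosomal, cholesterol and respiratory chain genes lie furthest to the right, with medians of 0.39, 0.38 and 0.27, and interferon-response genes furthest to the left at -0.29.

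Set beside the same knockdown at other times, the values at 2 h were close to those without E2 and at 8 h. At 0 h 1397 genes were called (9.12%, with 3.98% higher and 5.14% lower) and at 8 h 1372 (8.96%, with 2.81% higher and 6.14% lower). The 3 comparisons use different samples but share 1 estimate of spread per gene. At 0 h the replicates were less alike. On the first principal component of all 18 samples sip53 replicate 1 at 0 h lay at -3.10, and replicates 2 and 3 at 18.8 and 28.3. Of the 1871 calls at 2 h 854 were called in the same direction at 0 h (45.6% of the 2 h calls and 61.1% of the 0 h calls) and 895 at 8 h (47.8% and 65.2%), with 0 called in the opposite direction. The test of the difference between the effect at 2 h and that at 0 h called 0 genes (edgeR quasi-likelihood test, 451 at an unadjusted p under 0.05, 1 with DESeq2), and that against 8 h also called 0 (508, and 0 with DESeq2). Evenly spread p-values would put 766 genes under 0.05, more than were found. A difference between times has a larger SE than each effect (for IGFBP3 0.19, against 0.14 at 2 h). By this test no gene was called as particular to 2 h, which does not show that the effects were equal.

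RPS27L had log2 fold changes of -1.81, -2.30 and -2.21 at 0, 2 and 8 h, and ACLY of -1.01, -1.07 and -0.81. TSPAN2 was higher by 1.62, 1.5 and 1.39 at the same times, and HMGCS1 by 0.86, 0.65 and 0.92. These genes passed the test at each time. Other values at 2 h stood further from 0 than at both other times. TFAP2C was at 0.36, 0.73 and 0.41 at 0, 2 and 8 h, and IGFBP3 at -0.48, -1.09 and -0.58. The siControl samples of IGFBP3 at 0 h were at 655, 380 and 612 CPM, so replicate 2 lowers the size of its 0 h value. PFKFB3, an activator of glycolysis, was at -0.30, 0.63 and 0.05 and was called at 2 h alone, in 3 of 6 fits, and MED18 was at 0.50, 1.11 and 0.29. For each of these 4 genes the adjusted p of the difference between times rounded to 1.

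**Figure D4:**
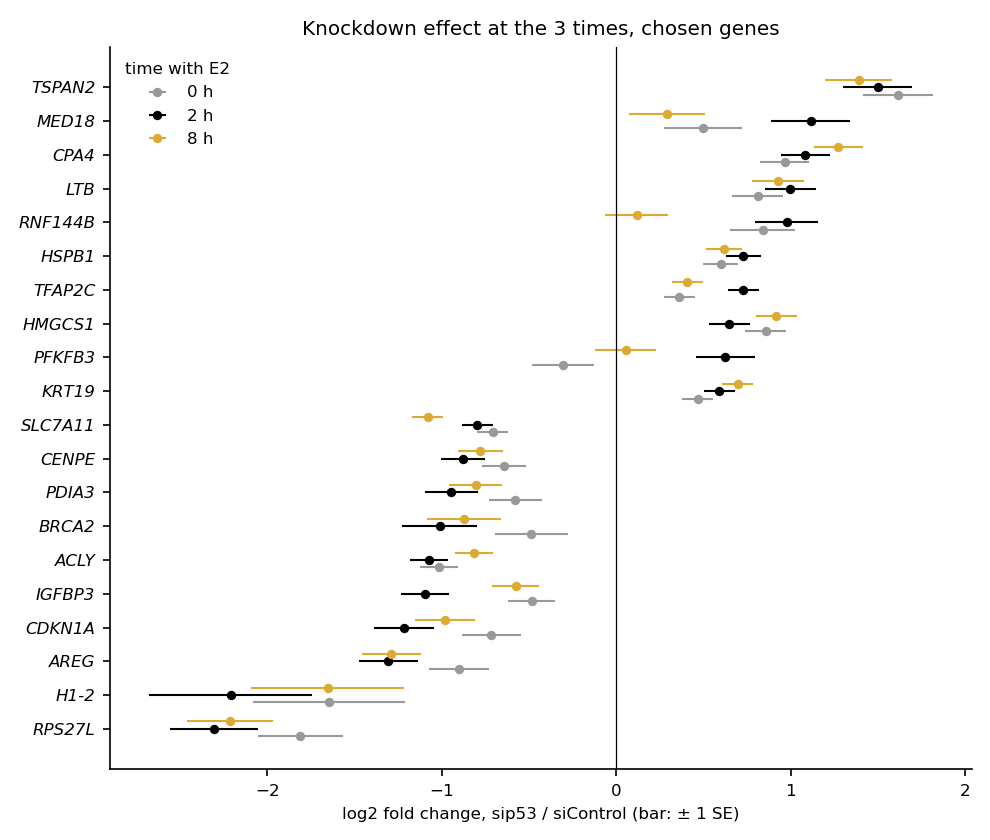
Log2 fold change of sip53 against siControl (horizontal axis, with ± 1 SE) for 20 genes at 0, 2 and 8 h of E2. Most genes keep their direction at the 3 times, while PFKFB3 is at -0.30, 0.63 and 0.05.

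The direction of change at 2 h followed transcript length and GC content. The libraries read the 3′ ends of transcripts, and the length and GC content used here are those of each gene's longest annotated transcript. With protein-coding genes in 5 equal groups by length, the median log2 fold change ran from 0.15 in the shortest group to -0.14 in the longest. Of the shortest group 9.47% were called higher and 2.57% lower, and of the longest 2.68% higher and 17.4% lower. In 5 equal groups by GC content the median ran from -0.18 in the lowest to 0.17 in the highest, with 17.8% lower and 1.78% higher in the lowest and 1.11% lower and 8.13% higher in the highest. How far this trend bears on any list was not tested beyond its removal. The median length was 2756 bases in higher genes, 5428 in lower genes and 3728 in all tested. With the trend removed, a setting chosen after seeing the data, 1560 genes were called (710 higher and 850 lower), of which 1143 were among the 1871. Under it the 14 higher cholesterol genes numbered 14 again, the lower p53 targets 10, the lower endoplasmic reticulum chaperones 6 and the lower interferon genes 4. The higher ribosomal proteins numbered 21 in place of 29, the higher respiratory chain genes 12 in place of 17, the lower recombination genes 5 in place of 9 and the lower estrogen-induced genes 3 in place of 5. Calls given above for AURKB, TEAD1, EFNA1, RB1, FTL, ZEB1, CITED2, BTC, GRHL2 and ENSG00000271698 were also lost, with adjusted p from 0.0614 to 0.344.

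**Figure D5:**
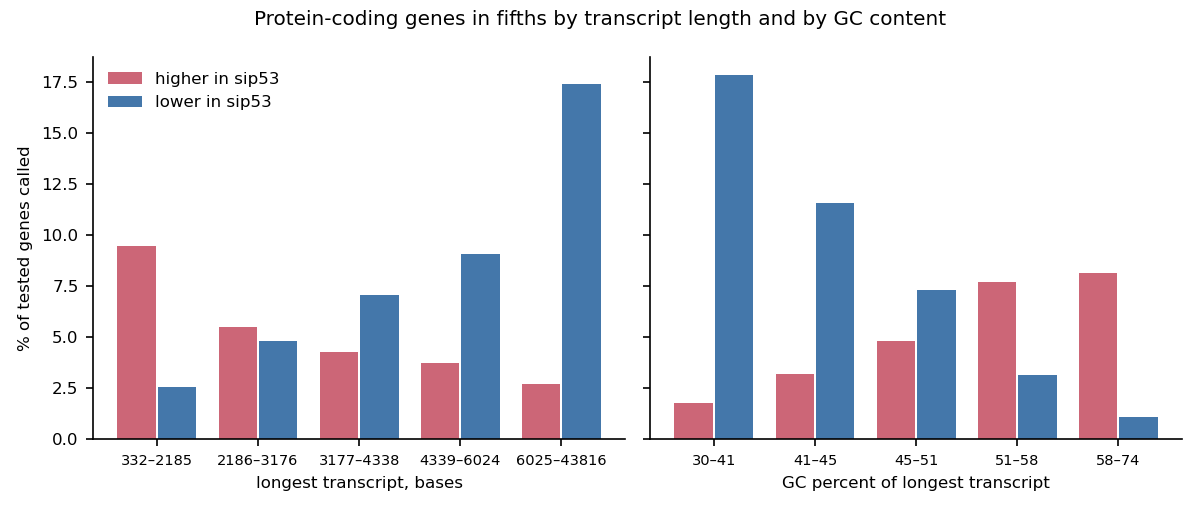
Percent of tested protein-coding genes called higher or lower in sip53 at 2 h (vertical axis, from 0) in 5 equal groups by length in bases and by GC percent of the longest transcript. Lower calls rise from 2.57% to 17.4% with length and fall from 17.8% to 1.11% with GC content.

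Calls among pseudogenes and multi-copy genes leaned downward. Of 316 processed pseudogenes 40 were lower and 6 higher, and of 185 transcribed unprocessed pseudogenes 18 were lower and 0 higher. The shares called, 14.6% and 9.73%, were near the 12.2% of all genes, which also leaned downward (7.79% lower and 4.42% higher). Antisense genes (14 lower and 2 higher) and long intergenic noncoding RNA genes (17 and 6) did so too, so the lean was not particular to pseudogenes. All 8 called genes of the NPIP family of segmental duplications were lower, and 2 humanin-like genes, MTRNR2L8 (601 ± 151 CPM against 88.5 ± 4.96, SD, n = 3 each) and MTRNR2L12 (643 ± 68.5 against 210 ± 18.6), whose sequence resembles mitochondrial ribosomal RNA, were lower as well. Reads of such genes map to more than 1 place, so none of these values can be assigned to 1 gene with certainty. NPIPB11 and the read-through gene TVP23C-CDRT4 were listed at 0 in all 3 sip53 samples, against 13.1 ± 4.70 and 4.24 ± 0.485 CPM in siControl, and no fold change is given for them.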

How the data were processed

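Gene expression was measured in 18 PEO1 samples with a QuantSeq 3′ kit started from 200 ng of RNA with 16 cycles of final amplification, per the labels' protocols. The deposited table holds expected counts per gene from RSEM 1.3.3, made by the authors with Bowtie2, cutadapt and genome build hg19, per the submitters' processing notes. The annotation they were counted on was not given in the sources used here. Rounding these deposited values before the fit moved 0 of them. Of 57736 table entries 52673 were named by a single gene through their transcripts (GENCODE release 29, GRCh38) and 267 by a majority of them, while entries with no gene held 0.635% of counts. Coordinates are therefore of GRCh38, not of the authors' build.

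The comparison used edgeR 4.0.16 in R 4.3.3. The filter filterByExpr (minimum count 10) kept 15318 genes, libraries were scaled by TMM, and glmQLFit with glmQLFTest took all 18 samples, 1 term for each group of siRNA and time (12 residual degrees of freedom). Adjusted p-values are Benjamini-Hochberg over all genes tested. Levels are TMM-normalised CPM, except the marker sums, which are CPM of the total count. The biological coefficient of variation was 15.2%, so the spread between samples limits precision more than depth does for most genes named. Between replicates at 2 h chi-square per degree of freedom was 4.04 to 14.1, which is above counting noise, and each library was kept as its own sample. Between siControl replicates 1 and 2 at 0 h it was 22.9.

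The groups come from the labels. The compared samples and the 32 gene lists were chosen with earlier results of these data known. Genes named are ESR1, 16 fixed genes, the 15 protein-coding genes per direction with the largest log2 fold change among those called, with groups that did not overlap and an average level of 3 or more in log2 CPM, and up to 4 called members per list and direction with the smallest adjusted p. Other list members named were chosen after their values were seen. The level of the targeted gene and the results of some other single genes are not reported here. The NPIP and MTRNR2L families and read-through genes were counted and not ranked, while other genes with close copies, such as histones, stayed in the ranking. Alternatives were other scalings, DESeq2 1.42.0, other filters, the 2 groups alone, a replicate block, leaving out each replicate and, chosen after seeing the data, removal of the trend with length and GC content. The scripts were tested on simulated data.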

Additional observations from a re-analysis of the deposited data

How the results depend on the processing

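Settings that rescaled, refiltered or retested the data gave 1894 calls at 2 h with DESeq2 size factors, 2023 with upper-quartile scaling (877 higher and 1146 lower, or 43.4% higher against 36.2%), 2307 with DESeq2, 2136 without the filter on low counts and 2000 with a stricter one. A fit to the 2 groups alone called 2730, of which 1027 were higher and 1703 lower. The trend removal raised the higher share to 45.5%. Leaving out 1 library gave 821 to 1923 calls, 225 to 790 of them higher and 584 to 1133 lower. The lone pair of samples left in a group is assumed to vary like the other groups. The difference between 2 h and 0 h called 1 gene with DESeq2 and 36 without the filter, and that between 2 h and 8 h called 42 without the filter, and the cause was not tested. Among 140 named genes called at 2 h, 86 stayed called without any 1 library and 118 under all other settings, and 0 reversed.

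Medians of some lists changed sign. That of receptors and cofactors was 0.10 with the trend removed, against -0.01. That of mesenchymal genes was 0.11 with the stricter filter, against -0.21. Immediate-early genes were at -0.014 without the filter, -0.17 with the trend removed and between -0.10 and 0.017 without 1 library. The EGF family was at 0 without the filter and between -0.118 and 0.0077 without 1 library. The cause was not tested.

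The replicate numbers showed no sign of pairing at 2 h. The correlation of same-numbered siControl and sip53 samples, as deviations from their group means, was between -0.06 and 0.01 at 2 h. It was between -0.04 and 0.14 at 0 h and between 0.04 and 0.07 at 8 h. Whether same-numbered samples shared a culture or batch cannot be told from these values. With the replicate block 1868 genes were called (683 higher and 1185 lower), and 0 in each of the differences between times.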
